A study of Mus musculus with 2 samples.

Results

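The HOX genes were taken as every gene that both scanner files name as Hoxa, Hoxb, Hoxc or Hoxd followed by a number, which gave 38 of the 27961 genes named on the array. They were measured in subcutaneous tumours of Panc02, a mouse pancreatic carcinoma line, grown in C57BL/6 mice kept in a standard or an enriched environment. In both groups the mice entered their housing at 3 weeks of age, received the same subcutaneous injection of tumour cells and stayed in that housing for 5 weeks more. Standard housing means plain laboratory cages, whereas an enriched environment offers animals more space, company and objects. Each group, called the standard and the enriched pool here, was 1 pool of total RNA from the tumours of 6 mice on 1 one-colour Agilent array, so there were no replicates, no spread between mice and no test. The labels call the tissue a xenograft, although tumour cells and hosts were both mouse. A pool of whole tumours holds host tissue as well as carcinoma cells, and fewer cells of a type and less RNA per cell cannot be told apart in it.

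HOX proteins are homeodomain transcription factors that give cells their position along the axis from head to tail and along the limbs. Mammals carry their genes in 4 clusters, and in each cluster the order of the genes follows the order of their expression in the embryo, with low numbers anterior and high numbers posterior. Genes of the same number in different clusters are paralogues that arose by duplication and share much of their function. Adult fibroblasts, fat, muscle and bone keep a HOX pattern that records the body site they came from, and carcinoma cells often express HOX genes out of place.

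A level is the log2 processed intensity of a probe minus the 75th percentile of that array. A difference is enriched minus standard, averaged over the probes of a gene. A gene was measured where at least 1 of its probes was well above background, as the scanner software marked it, on both arrays. The ± value after a difference is the spot error that this software gives, carried over to the log2 scale. It covers technical error within these arrays only. Levels of different genes are not set against each other, because probes differ in brightness for reasons other than the amount of RNA.

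The pools differed widely in markers of other tissues. All 15 skeletal muscle genes were at least 2-fold lower in the enriched pool, with a median difference of -7.92 and a range from -9.11 to -3.08, and their share of the array signal was 4.51% in the standard pool against 0.102% in the enriched pool. Medians were also below 0 for brown adipocyte (-6.46, 5 of 7 measured), erythroid (-5.58, 6 of 7), immature granulocyte (-4.25, 5 of 8), bone (-4.02, 3 of 7), endothelial (-0.85, 6 of 6) and nerve genes (-0.31, 7 of 7). They were above 0 for white adipocyte (2.30, 6 of 7 measured), carcinoma epithelium (2.14, 9 of 9) and keratinocyte genes (0.79, 8 of 9). Of the measured nerve genes 3 were higher and 4 lower, and of the measured keratinocyte genes 6 were higher and 2 lower. Fibroblast genes went both ways, with 7 higher and 5 lower around a median of 1.08, among them Col3a1 at 2.96 and Pdgfrb at -1.18, and pan-leukocyte genes were split 4 to 4 around 0.12. Krt8, Krt18 and Krt19, keratins of ductal epithelium, were well above background in both pools and higher in the enriched pool by 2.14, 1.59 and 1.84. Whether these shifts contribute to any HOX difference was not tested.

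Of the 38 HOX genes, 25 were measured on both arrays, or 65.8%, while the share was 72.5% over all genes named on the array. A further 3 were above background on the standard array only, 3 on the enriched array only and 7 on neither. Among the 25, 14 were higher and 11 lower in the enriched pool, so that 56% were higher against 52.0% of all measured genes. Only Hoxc8 was at least 2-fold higher, which is 4% of the measured HOX genes against 5.77% of the 20261 genes measured in all. Hoxd3, Hoxa9 and Hoxa7 were at least 2-fold lower, or 12% against 9.58% of all measured genes. The median HOX difference was 0.02 and that of all measured genes 0.03. Neither the counts nor the median thus set the HOX genes apart from the array as a whole, and the median was on either side of 0 depending on the processing, from -0.09 to 0.14. The HOX differences went in both directions within and between the clusters, as the differences of all measured genes also did.

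**Figure D1:**
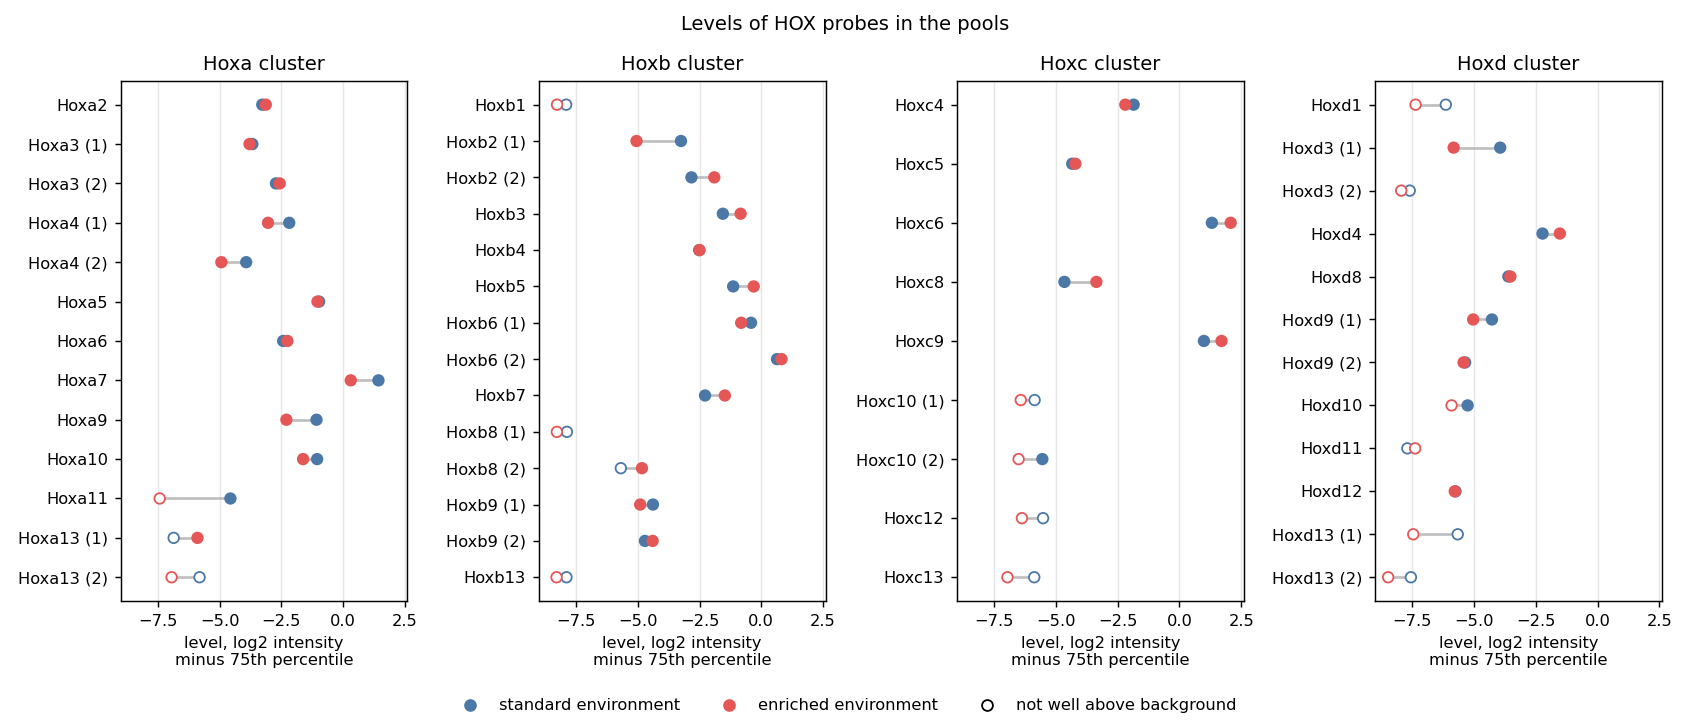
Levels of HOX probes in the standard (blue) and enriched (red) environment pool, as log2 intensity minus the 75th percentile of the array, in 4 panels for the clusters, with the genes in order of paralogue number and the probes of a gene numbered. Open circles are probes not well above background. They lie at the lower ends of the panels, among genes of groups 10 to 13 other than Hoxa10, and also at Hoxb1, Hoxb8, Hoxd1 and 1 Hoxd3 probe. The wide gaps between filled circles are those of Hoxd3, 1 Hoxb2 probe, Hoxc8, Hoxa9 and Hoxa7.

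The bases around the start sites of 4 genes are shown because these genes carry the contrasts between neighbours: Hoxa7 and Hoxa9 lie side by side and were both at least 2-fold lower, and Hoxd3 and Hoxd4 lie side by side and differed in opposite directions. The sequences are from RefSeq on assembly GRCm38.p6, 250 bases before to 50 after the start, 5′ to 3′ on the strand of the gene. They are at chr6:52218524-52218823 on the minus strand for Hoxa7, chr6:52227321-52227620 on the minus strand for Hoxa9, chr2:74711743-74712042 on the plus strand for Hoxd3 and chr2:74721728-74722027 on the plus strand for Hoxd4. Capitals mark TTTATG, letters of the site that CDX proteins and posterior HOX proteins prefer, searched on both strands as TTTATG and CATAAA.
Hoxa7: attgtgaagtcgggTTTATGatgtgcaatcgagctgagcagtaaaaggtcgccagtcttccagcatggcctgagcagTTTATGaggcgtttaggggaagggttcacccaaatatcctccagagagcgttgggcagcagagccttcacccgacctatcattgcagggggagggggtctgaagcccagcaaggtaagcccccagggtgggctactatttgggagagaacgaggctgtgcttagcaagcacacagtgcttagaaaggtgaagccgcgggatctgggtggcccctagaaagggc
Hoxa9: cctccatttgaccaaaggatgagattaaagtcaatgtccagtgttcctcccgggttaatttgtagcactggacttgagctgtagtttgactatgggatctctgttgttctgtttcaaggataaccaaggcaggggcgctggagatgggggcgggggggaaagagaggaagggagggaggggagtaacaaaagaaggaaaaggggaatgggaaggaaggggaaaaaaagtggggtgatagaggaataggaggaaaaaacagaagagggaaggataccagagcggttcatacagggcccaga
Hoxd3: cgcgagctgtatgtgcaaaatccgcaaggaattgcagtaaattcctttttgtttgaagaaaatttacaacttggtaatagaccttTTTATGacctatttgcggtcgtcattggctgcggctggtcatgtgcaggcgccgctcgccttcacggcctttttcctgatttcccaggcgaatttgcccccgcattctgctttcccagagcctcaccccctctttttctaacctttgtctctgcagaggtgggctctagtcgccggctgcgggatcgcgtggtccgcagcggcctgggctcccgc
Hoxd4: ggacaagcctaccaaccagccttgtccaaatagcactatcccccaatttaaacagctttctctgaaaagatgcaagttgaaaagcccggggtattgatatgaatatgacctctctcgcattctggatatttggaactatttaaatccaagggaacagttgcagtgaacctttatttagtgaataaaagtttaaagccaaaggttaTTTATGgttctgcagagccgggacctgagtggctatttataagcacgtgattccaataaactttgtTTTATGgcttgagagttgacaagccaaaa

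The motif stood 2 times in the Hoxa7 sequence, 1 time in that of Hoxd3, 2 times in that of Hoxd4 and not in that of Hoxa9. Genes with a difference of the same sign thus differed in it, and the neighbours Hoxd3 and Hoxd4 shared it while their differences had opposite signs. The table matched 22 of the 38 HOX genes with 24 promoters. TTTATG was in 5 of these 24, or 20.8%, and in 11.9% of all 32851 promoters of the same length. TGATNNAT, the letters of a joint PBX and HOX site, was in 4 of 24, or 16.7%, against 8.85% of all. It shares letters with TTTATG where TTTATGAT occurs, and none of the 4 printed sequences holds it. The median GC content was 57.7% in the HOX promoters and 52.7% in all. These matches describe letters only and say nothing of binding in the tumours.

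The Hoxa cluster was measured most completely, with 9 of 11 genes above background on both arrays and the others on 1 array each. On the mm7 build, which the probe positions of the array use, its probes lie on chromosome 6 and are listed on the minus strand. The anterior genes were close to their level in the standard pool. Hoxa2, which specifies the second branchial arch, was at -3.27 and -3.13, a difference of 0.14 ± 0.21. Hoxa3, needed for thymus and parathyroid, was at -3.20 and -3.18, a difference of 0.02, and its 2 probes lay on both sides of 0 at -0.11 and 0.15. Both differences were smaller than their spot error of 0.21 and 0.16.

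Further along the cluster the Hoxa differences were mixed and then low. Hoxa4 was at -3.05 in the standard and -3.98 in the enriched pool, and its 2 probes were both lower, at -0.86 and -1.01, so that its difference of -0.93 ± 0.17 ended just inside 2-fold. Hoxa5, which has a role in lung development, was at -0.97 and -1.04, and Hoxa6 at -2.43 and -2.26. Their differences of -0.06 and 0.17 were within the spot error of 0.20 and 0.21. Hoxa5 and Hoxa6 thus lay between lower neighbours without sharing their difference.

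Hoxa7 and Hoxa9 are known in blood-forming cells as genes switched on by MLL fusion proteins. The Hoxa7 level was 1.43 in the standard pool against 0.31 in the enriched pool, a difference of -1.12 ± 0.20, or 2.18-fold lower. The Hoxa9 level was -1.08 and -2.30, a difference of -1.22 ± 0.21, or 2.33-fold lower. Hoxa10, which is required in the uterus, was at -1.05 and -1.62, a difference of -0.57 ± 0.21. The 3 adjacent genes were thus lower in the same pool by more than their spot error. Among all measured genes, Hoxa9 lay at the 7.27th and Hoxa7 at the 8.13th percentile of the differences, so that many genes were further down. Immature granulocyte genes were lower by a median of -4.25 in the same pool, and their part in the values of these genes was not tested. The -1.22 of Hoxa9 was -0.998 with normexp, a fitted background correction with an offset, which is on the 2-fold line, and Hoxa7 kept values from -1.12 to -1.07 under the processings tried.

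At the posterior end, Hoxa11, a gene of limb, kidney and uterus, was above background only on the standard array, at -4.56. Its own signal on the enriched array was -7.43, below the lowest well measured signal there, and the ratio of its level to that lowest signal of -6.20 made it at least 3.12-fold lower in the enriched pool. Hoxa13, a gene of digits and the genital tract, was above background only on the enriched array, at -5.90, which is under the lowest well measured signal of -5.68 on the standard array, so that no bound could be given. Over the 9 measured genes the Hoxa median was -0.06, with 4 higher, 5 lower and 2 at least 2-fold lower, and it ranged from -0.17 to -0.01 under the alternatives.

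In the Hoxb cluster 7 of 10 genes were measured on both arrays, and none was 2-fold apart. The probes span chromosome 11 from 96304167 to 96476235 on mm7. The 3 genes with the largest differences were all higher in the enriched pool. Hoxb3 was at -1.56 in the standard and -0.84 in the enriched pool, a difference of 0.72 ± 0.21. Hoxb5, a gene of gut and lung mesoderm, was at -1.14 and -0.31, a difference of 0.83 ± 0.20. Hoxb7, found raised in several carcinomas, was at -2.28 and -1.48, a difference of 0.80 ± 0.21. These values alternate along the chromosome with genes near 0. Hoxb4, which expands blood stem cells when supplied to them, was at -2.51 and -2.50, a difference of 0.01 ± 0.21.

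For the other measured Hoxb genes the probes disagreed in sign. The Hoxb6 probes were at -0.41 and 0.64 in the standard and at -0.81 and 0.82 in the enriched pool, with differences of -0.40 and 0.18 and a mean of -0.11. The Hoxb9 probes were at -4.39 and -4.71 in the standard and at -4.90 and -4.40 in the enriched pool, with differences of -0.52 and 0.31 and a mean of -0.10. The means near 0 of these genes thus average probes with opposite differences. Over the array, 27.2% of the 6848 genes with several measured probes had opposite signs, and the median SD between probes of a gene was 0.18.

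Hoxb2, a hindbrain gene, had the widest disagreement. A probe at 96462847 to 96462906, on the strand of the cluster, was at -2.83 in the standard and -1.90 in the enriched pool, a difference of 0.93. The other, at 96459585 to 96459644, was at -3.25 and -5.05, a difference of -1.80. It is listed on the minus strand, unlike the other 13 Hoxb probes. Of 18673 array probes with a RefSeq accession, 99.0% were listed on the strand of their gene, but this probe has none and is outside that set. The mean of -0.44 therefore combines probes listed on opposite strands, and which transcript the minus-strand probe reads is not known here. Without it, in an alternative chosen after the values were seen, the Hoxb2 difference was 0.93 and the Hoxb median 0.72 in place of 0.01. With the brightest probe of each gene the Hoxb median was also 0.72, so that the direction of this cluster rests on the choice of probes.

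Of the remaining Hoxb genes, Hoxb8, which can hold myeloid progenitors in an immature state, was above background on the enriched array only, at -4.83, and at least 1.81-fold higher there. Its second probe was not well above background on either array. Hoxb1, a hindbrain gene, and Hoxb13, a gene of prostate and tail, lay at or under -7.89 on both arrays and were not well above background.

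In the Hoxc cluster 5 of 8 genes were measured, and 4 of the 5 were higher in the enriched pool, with a median of 0.71. This was above the other clusters, but Hoxb reached 0.72 with the brightest probe or without opposite-strand probes, and without a filter Hoxc was at -0.10 and below Hoxb at -0.05 and Hoxa at -0.08. Its probes span chromosome 15 from 102914520 to 103022308 on mm7, all on the plus strand. Hoxc6, a thoracic gene also active in the mammary gland, was at 1.31 in the standard and 2.07 in the enriched pool, a difference of 0.76 ± 0.20. Hoxc8, a thoracic gene that is higher in white than in brown fat, was at -4.66 and -3.36, a difference of 1.30 ± 0.27, or 2.45-fold higher. Hoxc9, likewise a gene of white fat and thoracic segments, was at 0.99 and 1.70, a difference of 0.71 ± 0.20. The 3 neighbours were thus higher together by more than their spot error, at processed intensities of 1867, 29.8 and 1493 in the standard and 4138, 95.5 and 3200 in the enriched pool.

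The anterior end of the Hoxc cluster did not share this. Hoxc4 was lower, at -1.86 and -2.19, a difference of -0.34 ± 0.21, and Hoxc5 was at -4.34 and -4.21, a difference of 0.13 ± 0.25. From Hoxc4 to Hoxc9 the 5 differences were -0.34, 0.13, 0.76, 1.30 and 0.71, but with normexp Hoxc8, at 0.38, was below Hoxc6 at 0.78 and Hoxc9 at 0.75. Hoxc10, a gene of lumbar segments, was above background on the standard array only, at -5.55, with a bound of at least 1.57-fold lower in the enriched pool. Hoxc12 and Hoxc13, the latter a gene of hair and nail, were not well above background on either array. In these pools white adipocyte genes were higher by a median of 2.30 and brown adipocyte genes lower by -6.46, and their part in the Hoxc values was not tested. The Hoxc8 difference was 0.38 with normexp, which changes the background model and adds an offset, and the parts of both were not separated. The Hoxc median was also 0.38 with normexp.

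The Hoxd cluster held the widest contrast between neighbours. Its probes span chromosome 2 from 74513664 to 74608718 on mm7, and 4 of its 9 genes were measured on both arrays. Hoxd3, which acts in neck vertebrae and in adhesion and migration of endothelial cells, was at -3.95 in the standard and -5.83 in the enriched pool, a difference of -1.89 ± 0.35, or 3.70-fold lower. Only 1 of its 2 probes was measured, with intensities of 48.8 and 17.3, and the other was not well above background on either array. Endothelial genes had a median of -0.85, and their part was not tested. Next to it, Hoxd4 was at -2.23 and -1.53, a difference of 0.70 ± 0.21. The step between these neighbours was 2.59, the largest of any measured neighbouring pair in the clusters. The Hoxd3 value was close to background in the enriched pool: it was -0.97 with normexp, -1.12 when the dim probe was averaged in, and not measured under a stricter filter.

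Hoxd8, the remaining central gene of the cluster, was at -3.62 and -3.54, a difference of 0.08 ± 0.23. Among the posterior Hoxd genes, which shape limb and digits, 1 of 5 was measured on both arrays. This was Hoxd9, at -4.82 in the standard and -5.24 in the enriched pool, with probe differences of -0.76 and -0.06 and a mean of -0.41. Hoxd10 was above background on the standard array only, at -5.27. Its own signal on the enriched array, -5.92, was above the lowest well measured signal there. Its value of 1.57-fold lower in the enriched pool is therefore an observed ratio and not a limit. On the log2 scale it was -0.65 with a spot error of 0.44. Hoxd12 was at -5.76 and -5.79 and above background on the enriched array only, with no bound, and Hoxd1, Hoxd11 and Hoxd13 were not well above background on either. The Hoxd median of -0.16 rests on 4 genes with 2 on each side of 0, and it was 0.04 under quantile normalization, 0.03 in the deposited value table and -0.41 without a filter.

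Of the 6 HOX genes above background on 1 array, 1 of the 3 seen on the standard array only had a bound of at least 2-fold, namely Hoxa11. Over all genes this held for 56.5% of 971. None of the 3 seen on the enriched array only had such a bound, against 13.2% of 904. The lowest well measured signal differed between the arrays, at -5.68 on the standard and -6.20 on the enriched array, so that the bounds of both kinds do not compare evenly.

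Along the axis from anterior to posterior, the genes differed in whether they were measured at all. Of the 8 anterior genes (groups 1 to 3) 6 were measured on both arrays, of the 15 central genes (groups 4 to 8) 14, and of the 15 posterior genes (groups 9 to 13) 5. These shares were 75%, 93.3% and 33.3%, beside 72.5% of all genes named on the array. Within the posterior genes the limit lay after group 9: all 4 genes of group 9 were measured but only 1 of the 11 genes of groups 10 to 13, which is Hoxa10, against 24 of 27 genes in groups 1 to 9. This boundary was chosen after the values were seen. In each cluster, no gene of groups 11 to 13 was well above background on both arrays. A gene under background may still be expressed at a level these probes could not show.

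The difference between the pools also varied along the axis. The median was 0.03 for anterior, 0.10 for central and -0.41 for posterior genes, and 4 of the 5 measured posterior genes were lower, with Hoxc9 as the exception. Hoxb9, at -0.10 ± 0.19, was above 0 under quantile normalization, in the deposited value table and with the brightest probe, where the count was 3 of 5. The anterior median lay between -0.11 and 0.15 and the central between -0.03 and 0.21 under the filtered alternatives, while the posterior stayed below 0, from -0.57 to -0.12. With 5 genes from 4 clusters in the posterior class, its median of -0.41 is the value of Hoxd9. That gene was dim, at -4.82 in the standard and -5.24 in the enriched pool, with probe differences of -0.76 and -0.06. In the Hoxa cluster alone, the anterior Hoxa2 and Hoxa3 were at 0.14 and 0.02, the 4 central genes had a median of -0.50 and the 2 measured posterior -0.89. Among its measured genes the Hoxc cluster ran the other way, with central genes at a median of 0.45 and Hoxc9 at 0.71. Hoxc9 was the only 1 of its 4 posterior genes measured on both arrays. Hoxc10, above background on the standard array only, had a bound of at least 1.57-fold lower in the enriched pool.

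Paralogues differed from each other in sign and size. In group 9, Hoxa9 differed by -1.22, Hoxb9 by -0.10, Hoxc9 by 0.71 and Hoxd9 by -0.41, so that Hoxa9 and Hoxc9 lay on opposite sides of 0, each by more than its spot error. In group 7, Hoxa7 was at -1.12 and Hoxb7 at 0.80. Group 4 spanned from -0.93 in Hoxa4 over -0.34 in Hoxc4 and 0.01 in Hoxb4 to 0.70 in Hoxd4. Group 3 spanned from -1.89 in Hoxd3 over 0.02 in Hoxa3 to 0.72 in Hoxb3. Groups 5, 6 and 8 had narrower or one-sided values: the measured genes of group 8, Hoxc8 and Hoxd8, were both above 0, and in group 6 Hoxc6 at 0.76 stood above Hoxa6 at 0.17 and Hoxb6 at -0.11. Neighbours among the measured genes of a cluster were on the same side of 0 in 5 of 8 pairs in Hoxa and 2 of 6 in Hoxb. The tally was 3 of 4 in Hoxc and 1 of 3 in Hoxd. Hoxb7 and Hoxb9 count as such a pair, because Hoxb8 between them was not measured on both arrays. The Hoxb tally includes genes whose probes disagree: with the brightest probe of each gene, all 6 of 6 Hoxb pairs were on the same side, and with normexp 0 of 6 were, while the tallies of Hoxa and Hoxc were the same in every alternative.

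The array carried 10 other probes between the outermost HOX probes of the clusters, and 4 were measured on both arrays. In the Hoxa cluster, 5730446D14Rik, listed on the opposite strand beside Hoxa3, was at -2.28 and -2.27, and 2700086A05Rik, on the strand of the cluster next to Hoxa6, was at -1.44 and -1.04, a difference of 0.40. In the Hoxb cluster, the transcript TC1432492 near Hoxb3 was at -2.48 and -1.82, a difference of 0.66, where Hoxb3 was at 0.72. In the Hoxc cluster, BC034904, listed on the opposite strand, was at -5.59 and -5.02, a difference of 0.58 ± 0.37. In the Hoxd cluster, 1700109F18Rik, the opposite-strand transcript of Hoxd3, was above background on the standard array only and with 1 of its 2 probes, at -5.33. This is the pool in which Hoxd3 itself was higher.

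**Figure D2:**
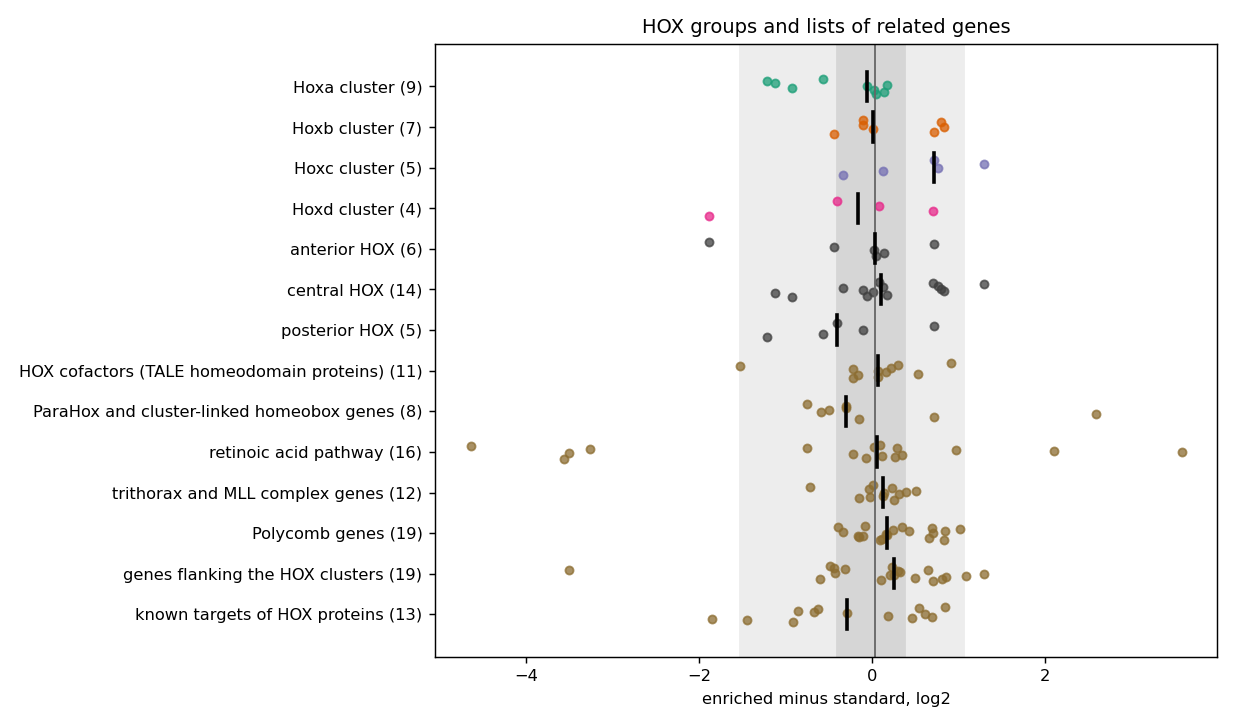
Differences of the measured genes, enriched minus standard pool on the log2 scale, for the HOX clusters, the HOX classes along the axis and the 7 lists of related genes, with the number measured in brackets. Points are genes, black bars are medians, the dark band holds the middle of all genes (25th to 75th percentile, -0.40 to 0.38) and the light band the 5th to 95th percentile (-1.53 to 1.07). Of the measured HOX genes, those outside the light band are Hoxd3 and Hoxc8, and the widest spread is that of the retinoic acid list.

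HOX proteins bind DNA together with TALE homeodomain proteins of the PBX, MEIS and PKNOX families. All 11 of these cofactor genes were measured, and 1 was at least 2-fold lower, against 9.58% of all measured genes. None was at least 2-fold higher, against 5.77%. Pknox2 was at -2.38 in the standard and -3.90 in the enriched pool, a difference of -1.53 over 2 probes with an SD of 1.18. Tgif2, a repressor of the family, differed by 0.91. The median of the list was 0.06, near the 0.03 of all genes.

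A list of ParaHox genes and other homeobox genes had 8 of 13 members measured. At least 2-fold higher was 1 of them, against 5.77% of all measured genes. Cdx2, an intestinal factor that activates posterior HOX genes in the embryo, was at -2.61 in the standard and -0.02 in the enriched pool, a difference of 2.59. Cdx1 and Cdx4, its relatives, were not well above background on either array. Meox2 differed by -0.75, and the pancreatic factor Pdx1, named Ipf1 in the files, was at -2.85 and -2.13, a difference of 0.72. The list median was -0.30, with 6 of 8 lower, among them Evx2, which lies beyond Hoxd13, at -0.60. Of all measured genes 52.0% were higher.

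Retinoic acid, a vitamin A derivative, sets anterior HOX genes in the embryo through receptors of the RAR and RXR families. This list spread the most, with 16 of 17 genes measured, 2 higher and 4 lower by 2-fold or more, around a median of 0.05. Among all measured genes, 5.77% were higher and 9.58% lower by that much. Aldh1a1, an enzyme that makes retinoic acid, was at 3.23 in the standard and -0.34 in the enriched pool, a difference of -3.56. Cyp26b1, which degrades it, was at 2.29 and -1.21, a difference of -3.50. The receptor genes Rxrg and Rarb differed by -4.65 and -3.27, while Crabp1, a binding protein gene, differed by 3.58. The anterior HOX genes, measured in the same pools, had a median of 0.03. Muscle genes, whose median was -7.92, were lower in the same pool as these 4 genes, and their part in them was not tested.

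Trithorax and MLL complexes keep HOX genes active, and Polycomb complexes keep them silent, both by modifying histones. Of 12 trithorax and MLL complex genes measured, none was 2-fold apart. Jmjd3, a histone demethylase that counters Polycomb, differed by -0.72, 2810410M20Rik, listed here for Dpy30, by 0.50 and Rbbp5 by 0.39, and the median was 0.13. Of 19 Polycomb genes measured, Cbx7 was at least 2-fold higher, at 0.15 and 1.16 with a difference of 1.01, Cbx2 differed by 0.84 and the methyltransferase gene Ezh2 by 0.83, and 13 of 19 were higher around a median of 0.17. Both medians lay inside the middle band of all genes, which ran from -0.40 to 0.38.

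**Figure D3:**
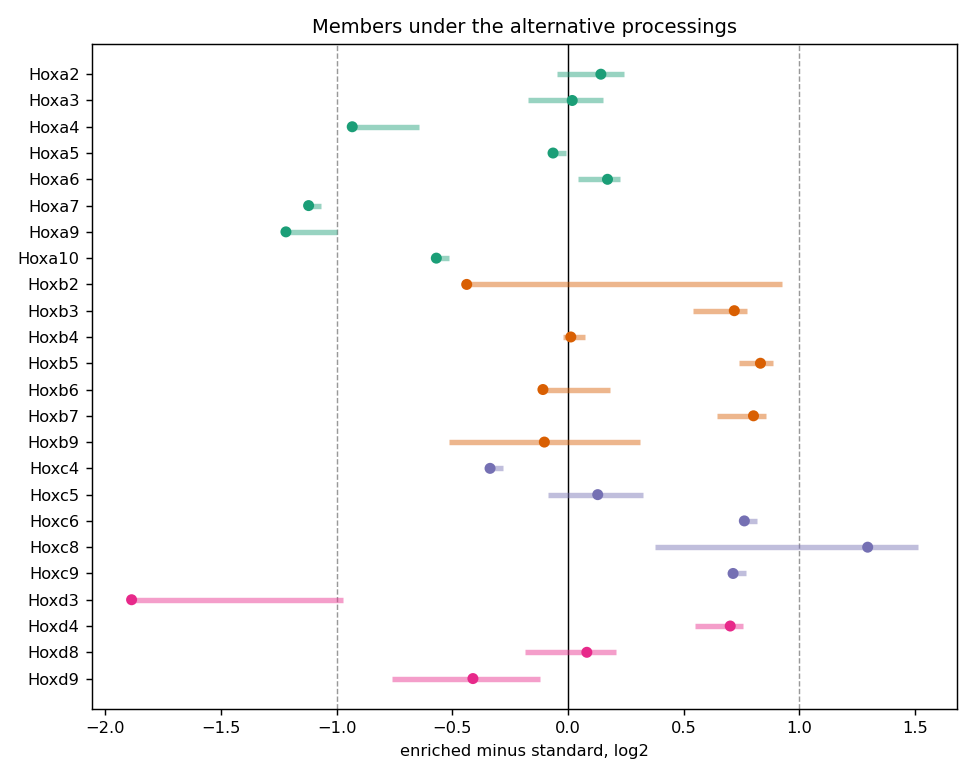
Differences of measured HOX genes, enriched minus standard pool on the log2 scale, with the value reported here as a point and the lowest to highest value under the filtered alternatives as a bar. Dashed lines mark 2-fold. Hoxa7 kept its side of the lower line, the bars of Hoxa9, Hoxd3 and Hoxc8 reach inside 2-fold, and the bars of 8 genes, among them Hoxb2, Hoxb6 and Hoxb9, reach across 0.

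Of the 25 measured HOX genes, 17 kept 1 sign in every alternative that used a filter. They include Hoxa4, Hoxa7, Hoxa9 and Hoxa10 below 0, Hoxb3, Hoxb5, Hoxb7, Hoxc6, Hoxc8, Hoxc9 and Hoxd4 above 0, and Hoxd3 where it was measured. The stability of a sign across processings says nothing of the spread between mice, which these pools do not hold.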

How the data were processed

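Each pool was labelled with Cy3 and hybridised to 1 whole mouse genome array. In the scanner files the authors deposited, each spot has a linear intensity. It was made with Agilent Feature Extraction 10.7.1.1, according to the submitters' processing notes, and its background steps weigh more on dim than on bright spots. A further deposited table holds 1 log2 value per probe and array. Its scaling and centring are not given in the sources used here. Across 30307 probes its columns correlated with log2 of the scanner intensity at r = 1.00, with medians of 8.54 (standard) and 8.56 (enriched), and it was used as an alternative only.

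Control spots and spots marked as outliers (66 and 70) were left out, which removed no HOX spot. Of 43379 other spots, 77.2% were well above background on the standard and 77.4% on the enriched array, and none was saturated. The log2 intensity was centred on each array's 75th percentile, which was 753 and 984. Spots of a probe, and then probes above background on both arrays, were averaged per GeneName. A gene above background on 1 array only was given a bound, its level there against the dim array's lowest well measured signal. Where its own signal on the dim array was higher, that signal was used, and the value is then an observed ratio and not a limit. Genes were counted at 2-fold, and no p-value was computed with 1 array per group.

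Every HOX gene could be named. In each of 7 lists of related genes the 3 largest differences and those of at least 2-fold were named, and 12 marker lists are described by counts and medians. A few genes that this rule selects are not reported here by name but count in the totals and medians. Members and lists were chosen with earlier results of these data known. Other genes of the lists, the keratins and the transcripts inside the clusters were named after their values were seen. Alternatives were a normexp background with offset 50 (limma 3.58.1 in R 4.3.3), median and quantile scaling, no filter and a stricter one, the brightest probe, outlier spots kept, the value table, names through RefSeq accessions and, added later, leaving out opposite-strand probes. The steps ran in Python 3.11.15 with pandas 2.3.3 and were tested on simulated data.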

Additional observations from a re-analysis of the deposited data

How the results depend on the processing

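No paired analysis was possible because each group was 1 array, which also left no array to leave out in turn. The counts of HOX genes became 0 higher and 1 lower with normexp, against 1 and 3, and the Hoxc median 0.38. The offset adds a constant to both arrays, which by construction shrinks differences of dim genes. Under quantile normalization the Hoxd median was 0.04 and the posterior median -0.12, and in the deposited value table they were 0.03 and -0.13. Without a filter all 38 HOX genes are counted in place of 25, and 7 of the 38 were at least 2-fold lower. The added ones were not well above background on both arrays. The medians without a filter were -0.10 for Hoxc, -0.41 for Hoxd and -0.18 for anterior genes. The stricter filter gave a Hoxd median of 0.08. The Hoxb median was 0.72 with the brightest probe and also without opposite-strand probes, an alternative added after seeing the data. Apart from the construction named for normexp, the cause of these changes was not tested. Over the alternatives, 222 of the single HOX values were within the spread taken as unchanged and 27 moved. Over all 20261 measured genes, 653 were at least 2-fold higher with normexp against 1169. Without a filter 3726 of 27961 genes were at least 2-fold lower, against 1940 of 20261 with it. The median of all genes was 0.11 under quantile normalization and in the value table and -0.11 without a filter, so that HOX differences of that size have no fixed side. The median of the HOX target list was -0.05 under the former pair, against -0.29 as reported. The number of arrays, and for the posterior genes the signal over background, limit what can be seen.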

Other observations

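Genes that flank the clusters on the chromosome were all measured, 19 of 19, around a median of 0.25. In the enriched pool 2 were at least 2-fold higher, against 5.77% of all measured genes, and 1 at least 2-fold lower, against 9.58%. Ttll6, next to the Hoxb cluster, was at -4.13 in the standard and -2.83 in the enriched pool, a difference of 1.30, and Scap1, the file's name for Skap1 on the other side of that cluster, was higher by 1.08. Nfe2, an erythroid and megakaryocytic factor gene beyond the Hoxc cluster, was at -0.05 and -3.56, a difference of -3.51, in the same direction as the erythroid genes with their median of -5.58. The part of blood cells in the Nfe2 value was not tested.

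Among 17 genes known as targets of HOX proteins in limb, kidney or hindbrain, 13 were measured, around a median of -0.29. None was at least 2-fold higher, against 5.77% of all measured genes, and 2 were at least 2-fold lower, against 9.58%. Epha7, an ephrin receptor gene, was at -2.34 and -4.19, a difference of -1.86, and Bmp7 at -2.11 and -3.56, a difference of -1.45. Bmp4, a further signal of that family, differed by -0.92. Fgf10, a limb bud signal, was above background on the enriched array only and at least 5.87-fold higher there, and Six2, a factor of kidney progenitors, was above background on the standard array only, with a bound of 4.08-fold or more.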
